A study of Homo sapiens with 6 samples.

Results

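RAB proteins are small GTPases of the RAS superfamily that give each membrane compartment its identity and direct the budding, transport, tethering and fusion of vesicles. A RAB is prenylated with the help of an escort protein, is switched on by a guanine nucleotide exchange factor (GEF), recruits effectors while it holds GTP, is switched off by a GTPase-activating protein (GAP) and is taken off the membrane by a GDP dissociation inhibitor (GDI). In keratinocytes these routes carry integrins and desmosomal cadherins to and from the surface, move lysosome-related organelles and take up pigment granules handed over by melanocytes. The RAB genes were taken as the rows of the deposited gene table whose symbol was RAB followed by a number and at most 1 letter from A to D, without effectors or pseudogenes. This gave 41 genes of the 22152 rows of the table.

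The samples were cultures of HaCaT, a spontaneously immortalised human keratinocyte line, transfected with a synthetic miRNA at 1 nM and harvested 48 h later. The NC mimic group (3 samples) received a negative control sequence, and the miR-21-3p mimic group (3 samples) received a copy of miR-21-3p, the strand of the MIR21 hairpin opposite to the better known miR-21-5p. Polyadenylated RNA was sequenced from each culture. HaCaT is a single line, so the 3 samples of a group were replicate cultures of the same cells and not cells from different people. The level of the mimic itself was not measured in polyadenylated RNA.

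The hairpin that gives rise to both strands is shown because the treatment copied 1 of its arms, and the capitals mark miR-21-5p, bases 8 to 29 of 72. It lies at chr17:59841266-59841337 on the forward strand of GRCh38.p14, and the sequence is from RefSeq.
MIR21 hairpin: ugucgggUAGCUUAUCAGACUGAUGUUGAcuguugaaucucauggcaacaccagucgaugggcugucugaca

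Each sample had an estimated 24402972 to 27982497 reads assigned to genes, recovered from rounded values. Values are given as the deposited normalised read counts, that is, reads divided by a size factor for the sample. The first principal component of the log2 values carried 54.8% of the variance and set the groups apart, with the NC mimic samples at 16, 1.1 and 11 (replicates 1, 2 and 3) and the miR-21-3p mimic samples at -8.88, -4.93 and -14.3. NC mimic replicate 2 thus stood nearer to the treated samples than the other NC mimic samples did, and the count of RAB genes called is given with and without it.

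In the comparison of the miR-21-3p mimic with the NC mimic, 40 of the 41 RAB genes had enough reads to be tested, and most of them stayed close to their control level. Expression of RAB38, RAB36 and RAB7A, all of the late endosome and lysosome route, was higher with the miR-21-3p mimic, and expression of RAB26, a secretory RAB, and of RAB40B was lower. The 5 changes were small, from 1.12-fold to 1.27-fold. A gene was called when its p-value from limma, adjusted over all genes tested by the Benjamini-Hochberg method, was under 0.05. By this rule 5 of the 40 RAB genes (12.5%) were called, next to 10.8% of the 14792 genes tested. The 3 higher calls stood beside 6.11% of all genes called higher, and the 2 lower calls beside 4.66% called lower. The median log2 fold change of the 40 genes was 0.025, against 0.0044 over all genes tested, and 23 of the 40 lay above 0. The share of RAB genes called was thus near that of the transcriptome.

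Without any reference to a test, all 3 treated samples lay above all 3 control samples for 9 of the 40 genes, next to 16.5% of all genes tested. All 3 lay below for 6 genes, next to 14.8% of all genes. Among the 35 genes that were not called, 28 had a 95% interval from limma that stayed inside a 1.2-fold change in either direction. The interval reached past that bound for RAB5B, RAB3D, RAB8A, RAB4A, RAB33B, RAB23 and RAB17, named after their values were seen. For most RAB genes a larger change thus lay outside the interval that these 6 samples gave.

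The number of calls changed when single samples were left out. Each such fit also holds fewer samples, so a lost call does not show that the difference came from the sample left out. With all samples 13 of the 40 RAB genes had an unadjusted p under 0.05 in limma, next to 28.6% of all genes tested. With limma, no RAB gene was called when NC mimic replicate 1 (3.66% of all genes called), NC mimic replicate 3 (1.19%), miR-21-3p mimic replicate 1 (1.87%) or miR-21-3p mimic replicate 3 (2.47%) was left out. The calls over all genes thus fell as well. When NC mimic replicate 2 was left out, 8 RAB genes were called, next to 20.0% of all genes tested. RAB5B, RAB8A, RAB11A and RAB21 joined the list, and RAB40B left it. Without miR-21-3p mimic replicate 2, the called genes were RAB26, RAB38 and RAB5B, next to 10.4% of all genes tested. The variance model mattered as well: limma without a trend of variance on level called 50 genes in all (0.338%) and no RAB gene, with 11 RAB genes at an unadjusted p under 0.05 (25.1% of all genes), whereas edgeR with TMM factors called the same 5 RAB genes as limma with the trend, and DESeq2 called RAB26, RAB38 and RAB7A. Calls near the threshold also moved with the scaling and the filter: RAB7A was lost with upper-quartile scaling, RAB40B with library totals, and RAB26 and RAB40B without a filter on low values.

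**Figure D1:**
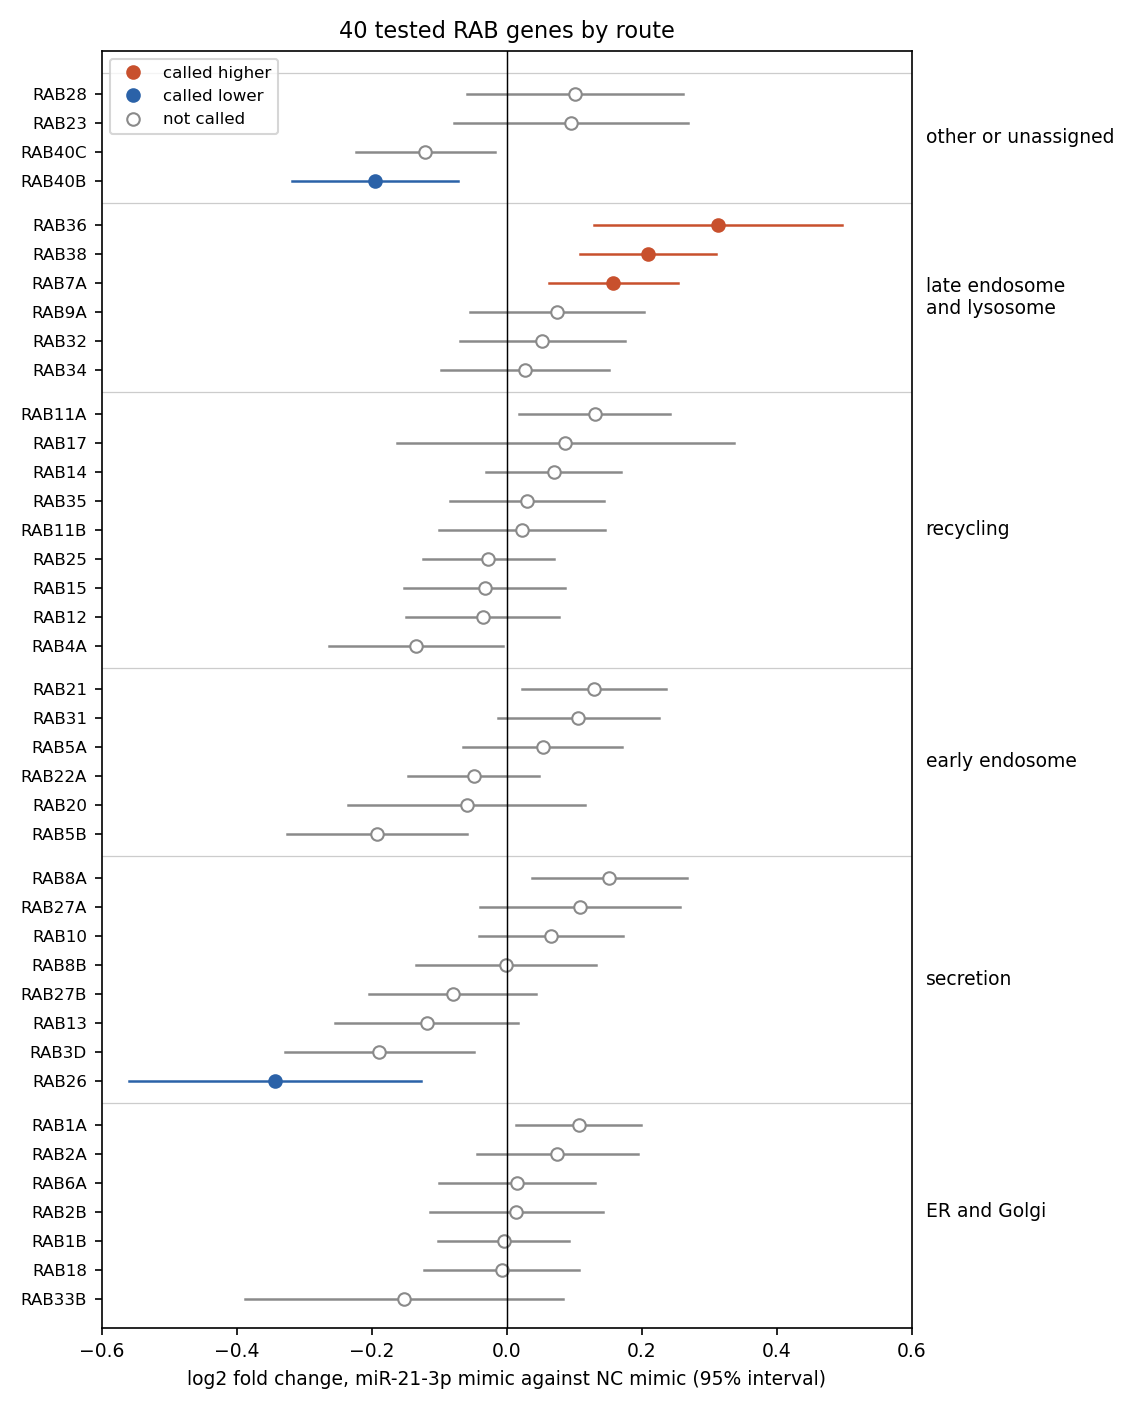
Log2 fold change (miR-21-3p mimic against NC mimic) of the 40 tested RAB genes with its 95% interval, grouped by route, where filled points are genes called by limma. Each RAB was placed by hand on a single route. The 3 genes called higher all sit in the late endosome and lysosome group, and the 2 called lower sit in the secretion and unassigned groups.

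Late endosomes collect cargo from early endosomes and fuse with lysosomes, and 6 RAB genes of this route were tested. Their median log2 fold change was 0.12 (0.093 to 0.14 over 17 alternatives), 3 were called higher and none lower (6.11% and 4.66% of all genes tested), and all 6 log2 fold changes were above 0. That held under each scaling tried, while that of RAB34 fell below 0 without NC mimic replicate 2 or without miR-21-3p mimic replicate 2. DESeq2 called 2 of the 6 and edgeR with TMM factors 3. With limma, 2 of the 6 were called with upper-quartile scaling and none without a variance trend. None was called either when NC mimic replicate 1 or 3, or miR-21-3p mimic replicate 1 or 3, was left out. Leaving out miR-21-3p mimic replicate 2 kept 1 call, and leaving out NC mimic replicate 2 kept 3. The related RAB29, which the naming rule left out, lay below 0 (log2 fold change -0.081), so the shared sign holds for the 6 genes alone. Whether this route differed from the others was not tested.

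RAB38 directs enzymes to melanosomes and other lysosome-related organelles. Its normalised read counts were 2970, 3120 and 3230 in the NC mimic samples and 3520, 3650 and 3600 in the miR-21-3p mimic samples. Every treated sample was above every control, and the gap was wider than the spread inside either group. The mean rose from 3107 ± 130.5 to 3590 ± 65.6 (SD, n = 3), a log2 fold change of 0.21 with a standard error of 0.046, or 1.16-fold (limma adjusted p = 0.0177). Across 17 alternative settings the log2 fold change ran from 0.18 to 0.24 and the adjusted p from 0.00691 to 0.0998. The call was lost on leaving out NC mimic replicate 1 (adjusted p = 0.0555) or 3 (0.0556), or miR-21-3p mimic replicate 1 (0.0685) or 3 (0.0643), in limma.

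RAB36, which binds effectors that position lysosomes near the nucleus, had normalised read counts of 299, 354 and 304 in the NC mimic samples and of 389, 401 and 396 in the miR-21-3p mimic samples. NC mimic replicate 2 was the control nearest to the treated samples, and the groups did not overlap. The log2 fold change was 0.31 with a standard error of 0.084, or 1.24-fold (limma adjusted p = 0.0362). It was the largest rise among the tested RAB genes. Without NC mimic replicate 2 it was 0.39 (limma adjusted p = 0.00577), and leaving out any other sample took the adjusted p to between 0.0734 and 0.141, within a range of 0.00577 to 0.141 over its 17 alternatives.

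RAB7A drives the maturation of late endosomes and their fusion with lysosomes. Its normalised read counts were 4520, 4780 and 4860 in the NC mimic samples and 5240, 5220 and 5330 in the miR-21-3p mimic samples. The treated samples lay close together and above all controls. The log2 fold change was 0.16 with a standard error of 0.044, or 1.12-fold (limma adjusted p = 0.0392). Its alternatives spanned 0.13 to 0.18 with adjusted p from 0.0287 to 0.134, and leaving out any sample other than NC mimic replicate 2 ended the call, as did upper-quartile scaling (adjusted p = 0.0523).

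The other tested genes of this route were RAB9A, which returns receptors from late endosomes to the Golgi, RAB32, the close relative of RAB38, and RAB34, which acts in lysosome positioning. Their log2 fold changes lay between 0.027 and 0.074 and none was called. RAB32 had 858, 923 and 891 normalised reads in the NC mimic samples and 946, 919 and 906 in the miR-21-3p mimic samples, and the groups overlapped. The related gene RAB29, listed in the table under its older name RAB7L1 and so outside the naming rule, had 506, 439 and 466 against 441, 459 and 432, which also overlapped (log2 fold change -0.081, standard error 0.075, limma adjusted p = 0.511).

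**Figure D2:**
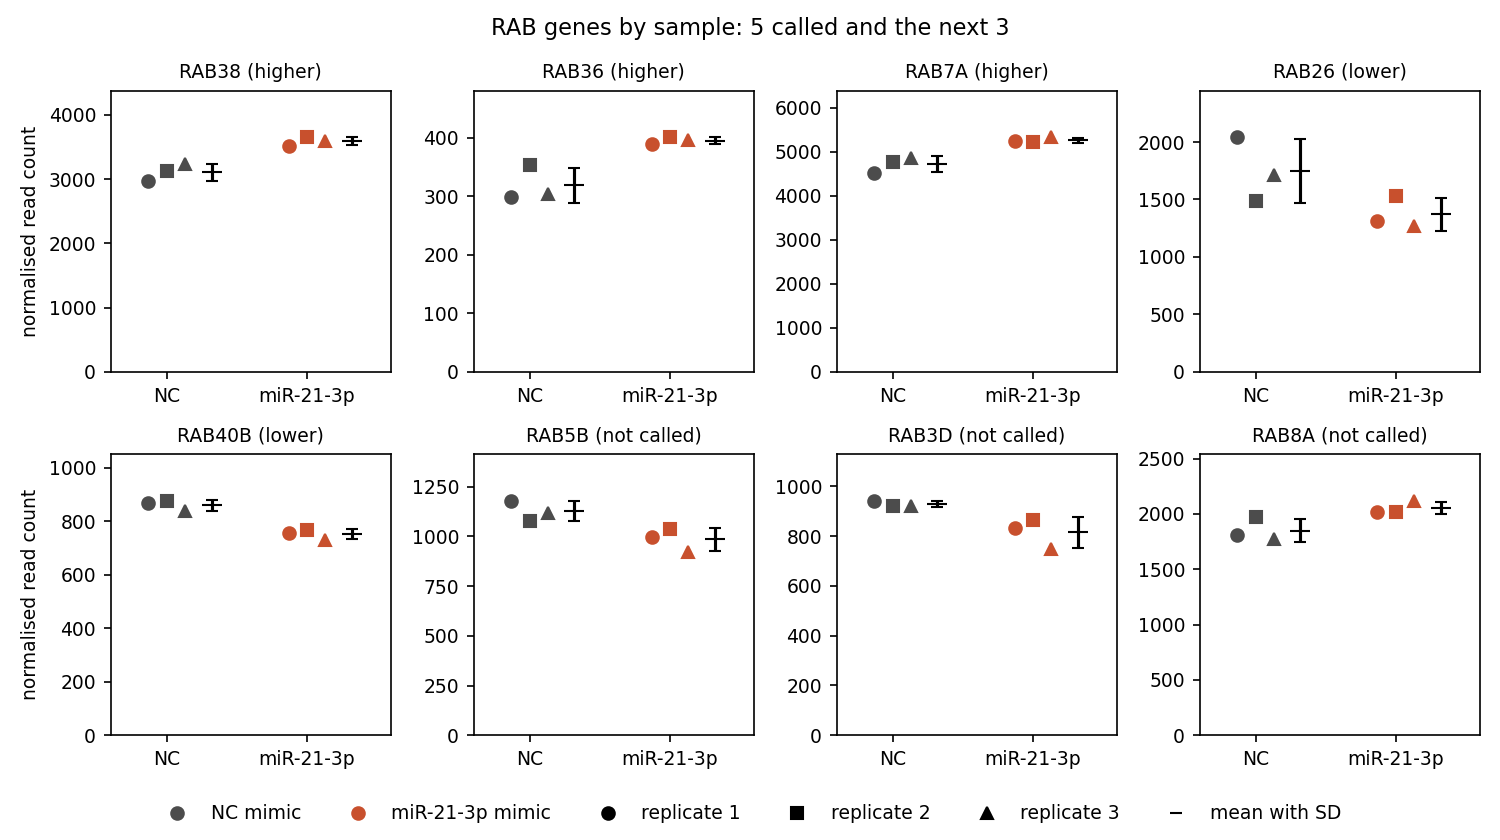
Normalised read count in each sample for the 5 called RAB genes and the 3 next in order of adjusted p, with replicates marked by shape and the mean ± SD beside them (n = 3). The groups overlap for RAB26, where miR-21-3p mimic replicate 2 (1530) lies above NC mimic replicate 2 (1490), and are separate for the other 7 genes.

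RABs of secretion carry Golgi vesicles and granules to the plasma membrane. Of 8 tested, 1 was called lower and none higher by limma, edgeR or DESeq2 (4.66% and 6.11% of all genes in limma), and 3 had an unadjusted p under 0.05 in limma (28.6% of all genes). The median log2 fold change of -0.040 depended on single samples and ran from -0.084 to -0.0026 over 17 alternatives. RAB26 helps to form secretory granules. Its normalised read counts were 2040, 1490 and 1710 in the NC mimic samples and 1310, 1530 and 1270 in the miR-21-3p mimic samples. The groups overlapped, since replicate 2 of each group had nearly the same value, and NC mimic replicate 1 was the highest of all. The mean was 1747 ± 276.8 in the controls and 1370 ± 140 in the treated samples (SD, n = 3). The log2 fold change was -0.34 with a standard error of 0.099, or 1.27-fold lower (limma adjusted p = 0.0454), the largest difference of any tested RAB gene in either direction. It moved to -0.23 without NC mimic replicate 1 (limma adjusted p = 0.151) and to -0.45 without NC mimic replicate 2 (0.0017), and 0.171 was the highest adjusted p of its 17 alternatives. It was not called either without NC mimic replicate 3 (adjusted p = 0.125) or without miR-21-3p mimic replicate 1 (0.156) or 3 (0.154) in limma.

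RAB3D, a RAB of granule exocytosis, and RAB8A, which carries vesicles to the basolateral membrane and the cilium, came next among the secretory RABs in order of adjusted p. RAB3D had 942, 921 and 920 normalised reads in the NC mimic samples and 833, 866 and 747 in the miR-21-3p mimic samples. All treated samples were lower, with miR-21-3p mimic replicate 3 the lowest. The log2 fold change was -0.19 with a standard error of 0.064 and did not pass the threshold (limma adjusted p = 0.0789; 0.0539 to 0.271 over 17 alternatives). RAB8A had 1810, 1970 and 1770 normalised reads in the controls and 2020, 2020 and 2120 in the treated samples. These groups were separate by a narrow margin between NC mimic replicate 2 and the lowest treated samples. The log2 fold change of 0.15, with a standard error of 0.053, was not called (limma adjusted p = 0.0843; 0.0181 to 0.289 over 17 alternatives), except without NC mimic replicate 2, where it was called higher.

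RAB10, which delivers Golgi vesicles to the basolateral surface, had the highest level per length of the secretory RABs. It had 5160, 5340 and 5760 normalised reads in the NC mimic samples and 5660, 5820 and 5520 in the miR-21-3p mimic samples. The groups overlapped (log2 fold change 0.065, standard error 0.049, limma adjusted p = 0.412). The log2 fold changes of the 7 secretory RABs that were not called lay between -0.19 and 0.15, and they include RAB27A and RAB27B, which dock granules and exosome-bearing endosomes at the membrane, and RAB13, which acts at tight junctions.

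Early endosomes receive what the cell takes up. Of the 6 tested RAB genes of this route none was called by limma, edgeR or DESeq2, although 2 had an unadjusted p under 0.05 in limma (28.6% of all genes). The median log2 fold change was 0.0023, with a sign that turned with the scaling and with the samples (-0.026 to 0.036 over 17 alternatives). RAB5B is a RAB5 paralogue that helps early endosomes to fuse. Its normalised read counts were 1180, 1080 and 1120 in the NC mimic samples and 995, 1040 and 924 in the miR-21-3p mimic samples. The groups were separate, with miR-21-3p mimic replicate 2 close to NC mimic replicate 2. At a log2 fold change of -0.19 with a standard error of 0.061 it missed the threshold (limma adjusted p = 0.0627; 0.0296 to 0.218 over 17 alternatives), and it was called lower without NC mimic replicate 2 or without miR-21-3p mimic replicate 2. RAB5A, the paralogue with the higher level per length, had 1520, 1550 and 1610 normalised reads in the controls and 1620, 1710 and 1530 in the treated samples. The groups overlapped, and its log2 fold change was 0.053 with a standard error of 0.054 (limma adjusted p = 0.556). RAB21, which takes up integrins, had a log2 fold change of 0.13 with a standard error of 0.049 (limma adjusted p = 0.107), and its treated samples, at 1880, 1880 and 1890, lay above the controls at 1650, 1800 and 1720. RAB21 was called only without NC mimic replicate 2 (limma adjusted p = 0.0463), and it was named after its values were seen.

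The row named RAB5C held 2.08, 4.12 and 4.88 normalised reads in the NC mimic samples and 3.06, 5.12 and 2.69 in the miR-21-3p mimic samples, too few to test. Its Ensembl ID, ENSG00000267261, belongs in GENCODE v29 to AC099811.2, a locus that overlaps RAB5C, so these values do not give the level of RAB5C, which was not analysed here. It is the single member of the 41 that was not tested.

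Recycling RABs return receptors and adhesion proteins to the surface. None of the 9 tested was called by limma, edgeR or DESeq2, 2 had an unadjusted p under 0.05 in limma (28.6% of all genes), and the log2 fold changes ranged from -0.13 to 0.13. Their median was 0.023, and it fell to 0.0021 without miR-21-3p mimic replicate 3 and rose to 0.035 without NC mimic replicate 2. RAB25, a RAB11 relative found in epithelia that takes part in integrin recycling, had 4560, 4350 and 4490 normalised reads in the NC mimic samples and 4350, 4550 and 4250 in the miR-21-3p mimic samples. The groups overlapped almost fully, with a log2 fold change of -0.028 and a standard error of 0.045 (limma adjusted p = 0.721). RAB11A, the general RAB of the recycling endosome, stood at the upper end of the range with 7360, 8390 and 7820 normalised reads in the controls and 8370, 8730 and 8660 in the treated samples. NC mimic replicate 2 reached the lowest treated sample, so the groups overlapped, and the log2 fold change was 0.13 with a standard error of 0.051 (limma adjusted p = 0.118). Without that control it was 0.18 and was called (limma adjusted p = 0.0202), a gene named after its values were seen. RAB4A, of the fast recycling route, stood at the lower end with a log2 fold change of -0.13 and a standard error of 0.060 (limma adjusted p = 0.159).

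On the route from the endoplasmic reticulum through the Golgi, none of the 7 tested RAB genes was called by limma, edgeR or DESeq2, 1 had an unadjusted p under 0.05 in limma (28.6% of all genes), and the log2 fold changes lay between -0.15 and 0.11. RAB1B, which with RAB1A admits vesicles to the Golgi, had the highest level per length of the route. Its normalised read counts were 4210, 3970 and 4050 in the NC mimic samples and 4060, 4180 and 3950 in the miR-21-3p mimic samples. The groups overlapped, and the log2 fold change was -0.0047 with a standard error of 0.045 (limma adjusted p = 0.956), a value whose sign turned with the scaling.

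Of 4 tested RABs with another role, RAB40B was called lower (4.66% of all genes) and the log2 fold changes of the other 3 lay between -0.12 and 0.10. RAB40B and RAB40C carry a SOCS box, through which they join ubiquitin ligases, next to the GTPase fold. RAB40B had 866, 876 and 837 normalised reads in the NC mimic samples and 755, 768 and 730 in the miR-21-3p mimic samples. Both groups were tight and did not overlap. The log2 fold change was -0.19 with a standard error of 0.057, so that its level fell by 12.6% (limma adjusted p = 0.0462; 0.0379 to 0.151 over 17 alternatives), and the call was lost on leaving out any of the 6 samples. RAB40C had 2050, 1970 and 1960 normalised reads in the controls and 1840, 1880 and 1780 in the treated samples. It too was lower in every treated sample, by a log2 fold change of -0.12 with a standard error of 0.047 that was not called (limma adjusted p = 0.116).

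**Figure D3:**
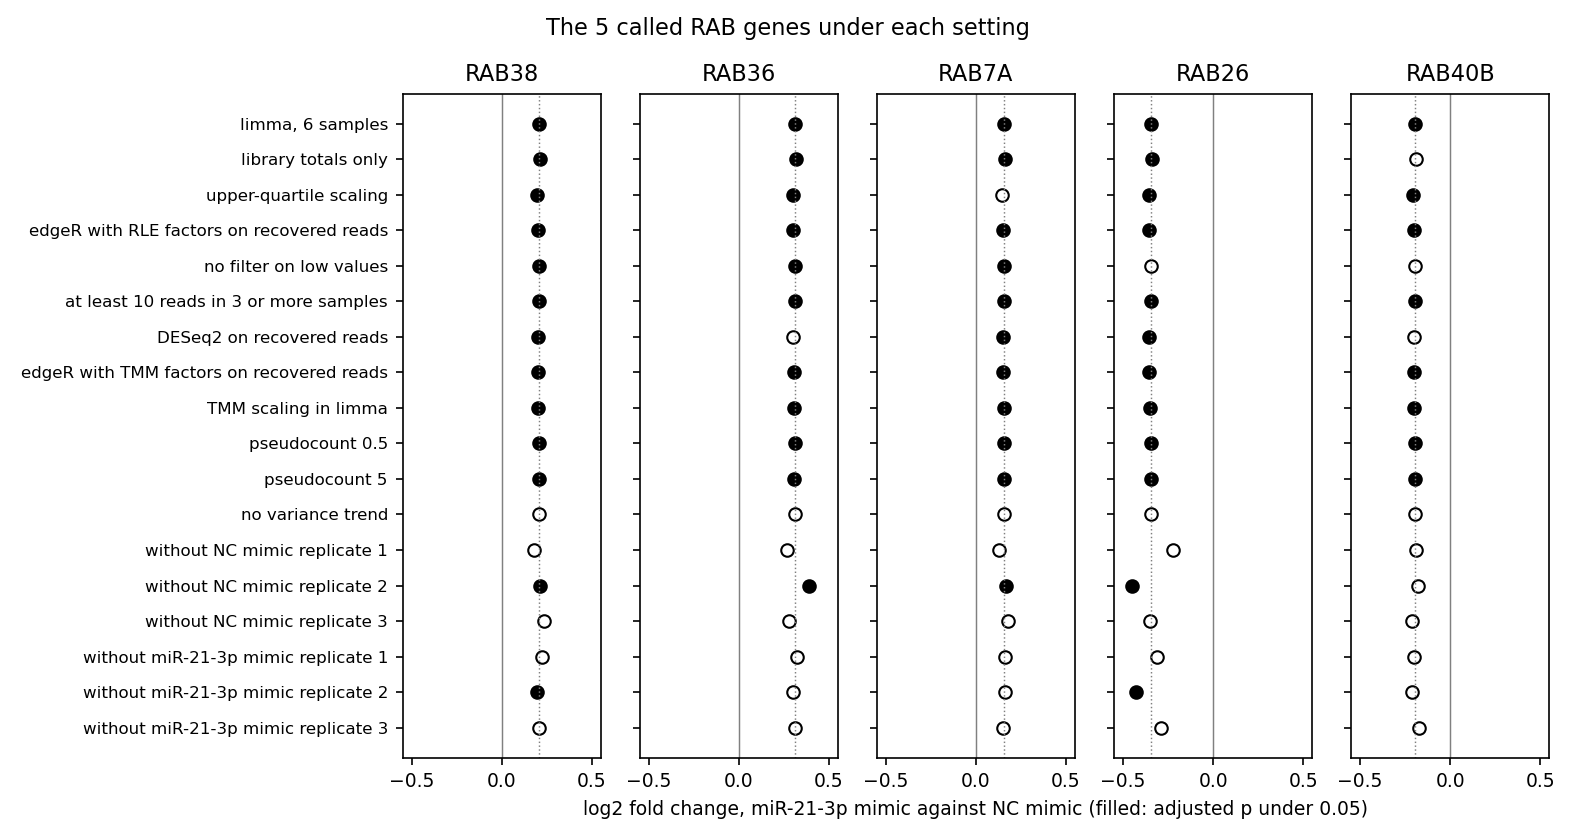
Log2 fold change (miR-21-3p mimic against NC mimic) of the 5 called RAB genes with all 6 samples and limma, and under 17 alternatives, where filled points have an adjusted p under 0.05. The signs hold in every row. Filled points are absent for limma without a variance trend and without NC mimic replicate 1 or 3 or miR-21-3p mimic replicate 1 or 3.

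The called genes are placed here by their Ensembl IDs in the GENCODE v29 annotation of GRCh38, since the build the authors used is not given in the sources used here. RAB38 (ENSG00000123892) lies on chromosome 11 from 88113242 to 88175467, on the reverse strand. RAB36 (ENSG00000100228) lies on chromosome 22 from 23145326 to 23164350, and RAB7A (ENSG00000075785) on chromosome 3 from 128726122 to 128814796, both on the forward strand. RAB26 (ENSG00000167964) lies on chromosome 16 from 2140803 to 2154165 on the forward strand, and RAB40B (ENSG00000141542) on chromosome 17 from 82654973 to 82698728 on the reverse strand. The called genes thus share no chromosome. Another annotated gene overlaps 13 of the 40 tested genes on the same strand and 25 on the opposite strand. These overlaps are of whole gene spans, and shared exons were not looked for. Where exons are shared on the same strand, reads may be mixed under any strand setting. On opposite strands this depends on the strand setting of the read counting, which is not given in the sources used here. RAB36 and RAB26 have no such neighbour.

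Levels were compared between genes per kilobase of exon, from the GENCODE v29 exons of each gene. The 40 tested genes spanned from 32.9 normalised reads per kb for RAB17, a RAB of polarised epithelia, to 2604 for RAB25 (means over 6 samples). RAB14, which sorts cargo between endosomes and the Golgi, followed at 2302, then RAB38 at 2286, RAB1B at 2028 and RAB7A at 1837. Of the called genes, RAB38 and RAB7A were thus among the 5 highest RABs per length, whereas RAB36, at 87.0, ranked 38 of the 40.

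**Figure D4:**
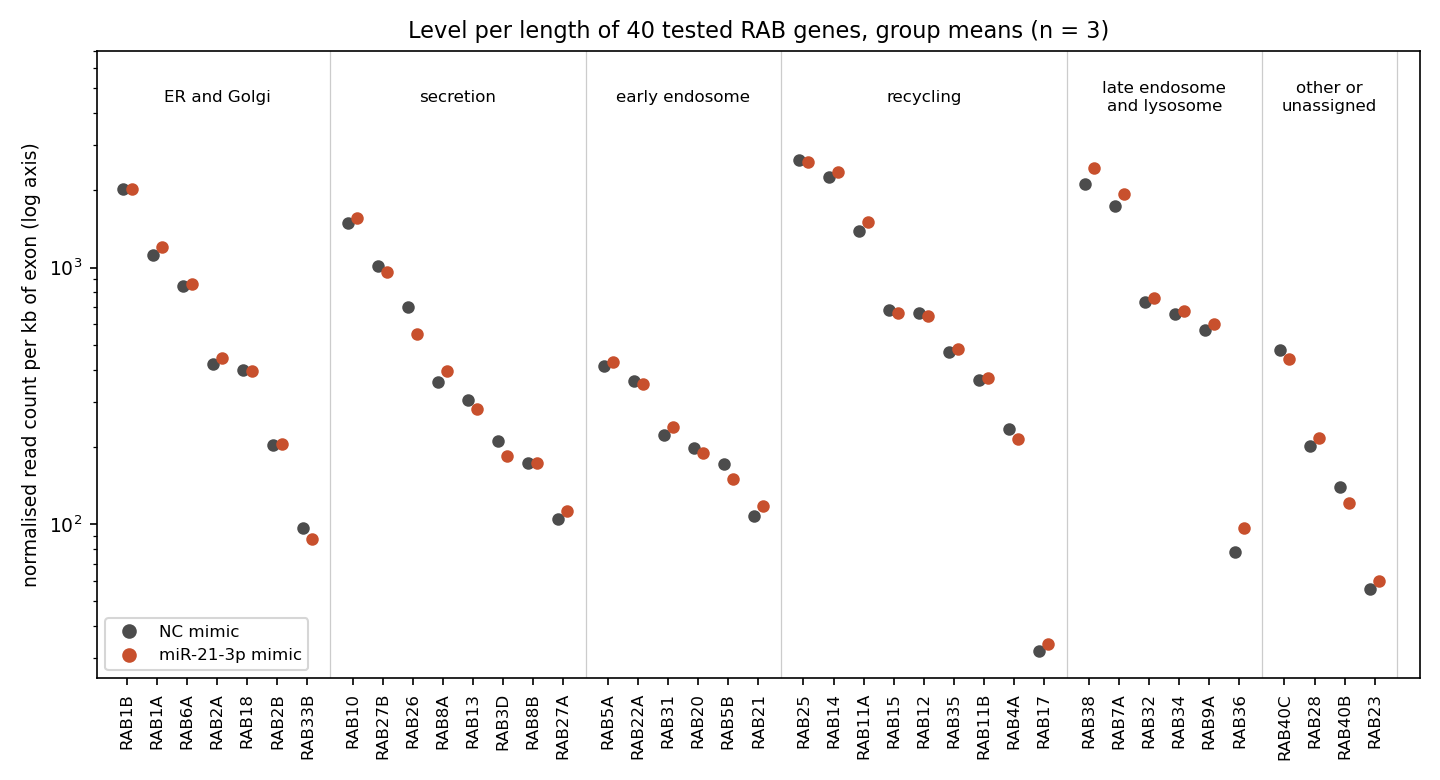
Normalised read count per kb of exon (log axis) of the 40 tested RAB genes by route, as the mean of the NC mimic and of the miR-21-3p mimic samples (n = 3 each). RAB25 is highest at 2629 in the controls and RAB17 lowest at 31.9, and the paired points of most genes lie close together on this scale.

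Summed over the route, the late endosome and lysosome RABs held 5694, 5951 and 6051 normalised reads per kb in the NC mimic samples and 6451, 6612 and 6488 in the miR-21-3p mimic samples. These groups did not overlap, and the ratio of the means was 1.10. The route made up 22.3% of all RAB reads per kb in the controls and 24.0% in the treated samples. Recycling RABs were the largest portion, at 32.9% and 32.7%, and early endosome RABs held 5.57% and 5.43%. The sums of the recycling, secretion, early endosome and ER and Golgi routes overlapped between the groups. The 4 RABs of other or unassigned routes summed to 870.6, 884 and 863.8 in the controls and 831.6, 854.1 and 819.8 in the treated samples, lower without overlap (ratio of the means 0.957). RAB38 and RAB7A hold most of the late endosome sum, so it repeats their values and is not a separate observation.

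The tested paralogues of a subfamily were unequal in level, and their balance moved little. Shares were taken over the tested paralogues alone. Members that were not analysed here, such as RAB5C and RAB40A, do not enter them. RAB27B held 90.7% of the RAB27 reads per kb in the NC mimic samples and 89.5% in the miR-21-3p mimic samples, and the samples overlapped. RAB25 held 60.1% and 57.8% of the sum of RAB11A, RAB11B and RAB25, again with overlap. RAB11A held 29.9%, 33.5% and 31.3% of that sum in the controls and 33.5%, 33.5% and 34.6% in the treated samples, so that the nearest samples meet. RAB40B held 22.2%, 23.1% and 22.4% of the RAB40 pair in the controls and 21.7%, 21.6% and 21.7% in the treated samples, lower by a narrow margin. The RAB5 pair was the clearest shift among the subfamilies, with RAB5B at 30.8%, 28.6% and 28.6% in the controls and 26.1%, 25.9% and 25.8% in the treated samples. The treated samples were all lower and closer together than the controls. RAB1A held 35.5% ± 1.3 of the RAB1 pair in the controls and 37.3% ± 0.64 in the treated samples (SD, n = 3), with no overlap. These shares were not tested.

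**Figure D5:**
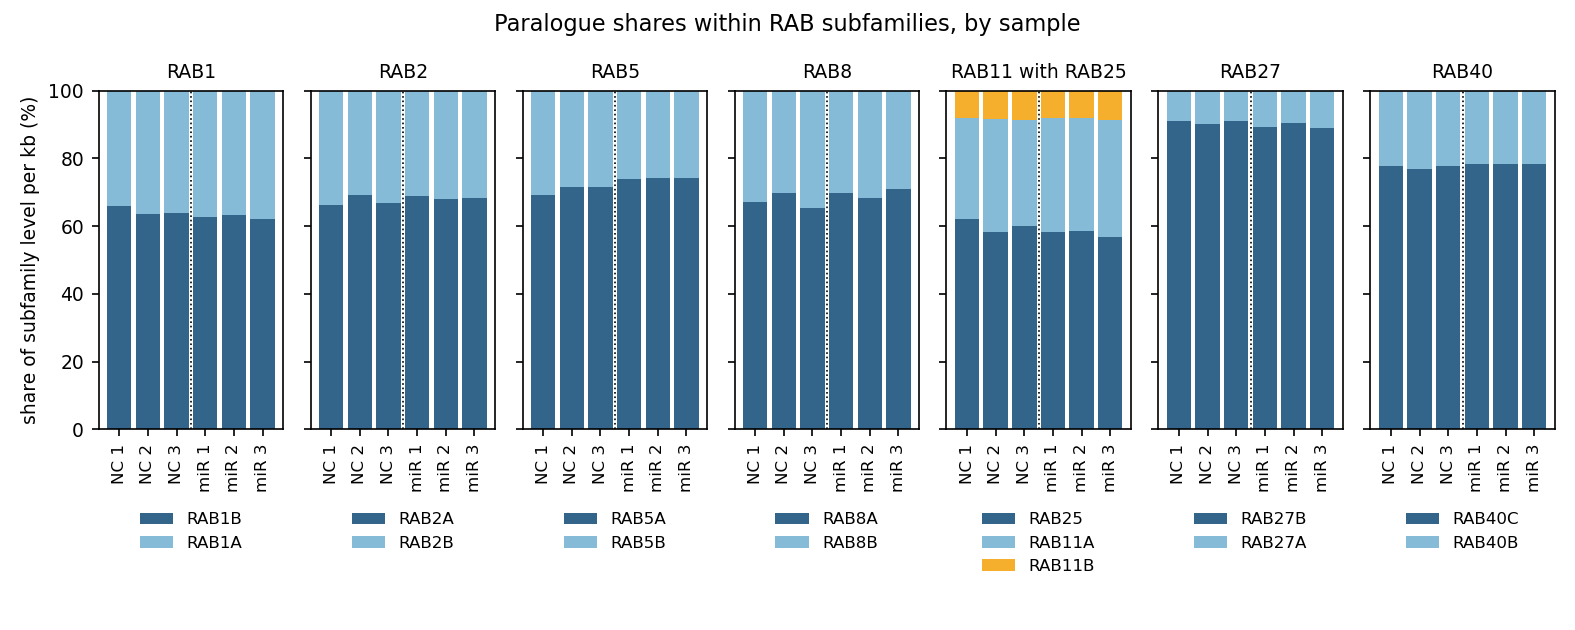
Share (%) of each paralogue in the normalised reads per kb of the tested paralogues of its subfamily, for each of the 6 samples. NC mimic is left and miR-21-3p mimic right of the dotted line. The highest of the tested paralogues is the same in all 6 samples of every subfamily. The RAB5A share of the RAB5A and RAB5B sum, without RAB5C, runs from 69.2% to 71.4% in the controls and from 73.9% to 74.2% in the treated samples.

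Promoter sequences from RefSeq (GRCh38.p14, windows of 300 bases around the start of transcription) matched 31 of the 40 tested genes by symbol, with 45 promoters in all. Both strands were searched for the GC box, spelled GGGCGG. They were also searched for a box named by its letters, CCAAT. The last motif was the core of an E-box found near many lysosomal genes, spelled CACGTG. The GC box stood in 36 of the 45 RAB promoters (80.0%) and in 45.0% of all 35116 promoters of the same length. The RAB promoters belong to genes with enough reads to be tested, whereas the full set was not limited in this way. The sets are thus unlike, and whether the difference is particular to RAB genes was not tested. CCAAT stood in 14 (31.1%, against 34.6%) and CACGTG in 4 (8.9%, against 7.3%), the latter in RAB21, RAB31, RAB4A and RAB5A. The promoters of RAB7A and RAB40B are shown as the called genes with an entry, 1 from each direction, and the capitals mark GGGCGG and CCAAT on either strand. RAB7A lies at chr3:128725933-128726232 on the forward strand and RAB40B at chr17:82698649-82698948 on the reverse strand. A match describes letters and not a bound site.
RAB7A: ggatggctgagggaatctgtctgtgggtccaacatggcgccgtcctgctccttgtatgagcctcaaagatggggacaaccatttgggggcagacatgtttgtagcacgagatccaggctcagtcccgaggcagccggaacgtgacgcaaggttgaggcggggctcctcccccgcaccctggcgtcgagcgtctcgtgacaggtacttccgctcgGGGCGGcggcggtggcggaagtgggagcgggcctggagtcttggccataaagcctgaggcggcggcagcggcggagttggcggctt
RAB40B: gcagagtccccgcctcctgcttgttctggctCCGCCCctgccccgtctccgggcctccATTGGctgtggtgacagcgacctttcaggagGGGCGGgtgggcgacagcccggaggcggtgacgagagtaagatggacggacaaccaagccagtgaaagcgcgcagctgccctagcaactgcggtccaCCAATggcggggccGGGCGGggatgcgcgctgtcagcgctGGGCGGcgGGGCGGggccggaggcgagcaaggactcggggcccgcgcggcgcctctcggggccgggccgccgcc

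RAB7A held 1 GC box and no CCAAT box, and RAB40B held 5 GC boxes and 2 CCAAT boxes. CACGTG was found in neither window.

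The proteins that load, switch and read RABs were followed in lists by role. Of 134 tested, 6 were called higher and 3 lower by limma (6.72%), with a median log2 fold change of -0.018. DESeq2 called 4 higher and 3 lower, and edgeR with TMM factors 6 and 5. With limma no gene of these lists was called when NC mimic replicate 1, NC mimic replicate 3 or miR-21-3p mimic replicate 1 was left out, 1 was called without miR-21-3p mimic replicate 3, 5 higher and 4 lower without miR-21-3p mimic replicate 2 (10.4% of all genes), and 9 higher and 9 lower without NC mimic replicate 2 (20.0% of all genes). The share called was below the 10.8% of all genes tested.

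Of the genes named here for prenylation, escort and removal from the membrane, none was called by limma, edgeR or DESeq2. GDI2, the main GDI of many cell types, had 8840, 9350 and 9860 normalised reads in the NC mimic samples and 9400, 9590 and 9580 in the miR-21-3p mimic samples, with overlap. The escort protein gene CHM had a log2 fold change of -0.045 (standard error 0.056), and RABGGTA, the alpha subunit of the prenylating enzyme, one of -0.085 (0.057). RABGGTB, its beta subunit, had 1510, 1720 and 1570 normalised reads in the controls and 1810, 1740 and 1980 in the treated samples. All treated samples were higher, by a log2 fold change of 0.20 with a standard error of 0.063 that missed the threshold (limma adjusted p = 0.0569). CHML was not analysed here.

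Of 38 GEF genes, TRAPPC4 and TRAPPC3, core subunits of the TRAPP complexes that activate RAB1, were called higher by limma and none lower (6.11% and 4.66% of all genes). TRAPPC4 had 871, 853 and 880 normalised reads in the NC mimic samples and 990, 970 and 1040 in the miR-21-3p mimic samples. The groups did not overlap (log2 fold change 0.20, standard error 0.055, limma adjusted p = 0.0366). TRAPPC3 likewise was separate, with 1300, 1310 and 1310 against 1470, 1450 and 1480 (log2 fold change 0.17, standard error 0.047, limma adjusted p = 0.0418). EdgeR called 2 GEF genes higher and 1 lower, DESeq2 called none, and 6 had an unadjusted p under 0.05 in limma (28.6% of all genes).

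Of 32 GAP genes, which belong to the TBC domain family, 1 was called higher and 2 lower by limma, a share of 9.38% near the 10.8% of all genes. TBC1D9 had 520, 414 and 520 normalised reads in the NC mimic samples and 389, 408 and 350 in the miR-21-3p mimic samples. The treated samples were lower throughout, though NC mimic replicate 2 was nearly level with miR-21-3p mimic replicate 2 (log2 fold change -0.34, standard error 0.099, limma adjusted p = 0.0478). TBC1D17 had 984, 769 and 860 against 702, 712 and 710, again lower in all treated samples (log2 fold change -0.29, standard error 0.080, limma adjusted p = 0.0382). TBC1D16 had 620, 604 and 597 against 733, 689 and 730. It was higher in all treated samples (log2 fold change 0.24, standard error 0.061, limma adjusted p = 0.0281).

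Effectors of the early endosome and of recycling held the other called partners. EEA1, the tether that RAB5 recruits, had 2520, 2640 and 2740 normalised reads in the NC mimic samples and 3180, 3210 and 2870 in the miR-21-3p mimic samples. All treated samples were higher, with miR-21-3p mimic replicate 3 nearest to the controls (log2 fold change 0.23, standard error 0.054, limma adjusted p = 0.0225). PIK3R4, a subunit of the lipid kinase that makes the phosphoinositide of early endosomes, had 1250, 1430 and 1280 against 1560, 1480 and 1540. It too did not overlap (log2 fold change 0.21, standard error 0.059, limma adjusted p = 0.0397). These were 2 of 11 early endosome effectors, next to 6.11% of all genes called higher. The median log2 fold change of the 11 was 0.0022. Without overlap, 2 of the 11 were higher and 3 lower (16.5% and 14.8% of all genes). Those lower were APPL1, PIK3C3 and HOOK1 (log2 fold changes -0.18, -0.14 and -0.16), which were not called. Of 13 recycling effectors, 1 was called higher and 1 lower (6.11% and 4.66% of all genes). Among them SH3TC2, a RAB11 effector, had the largest difference of the called partners, with 274, 381 and 301 against 448, 384 and 510. Its groups were separated by a narrow margin between replicate 2 of each (log2 fold change 0.49, standard error 0.13, limma adjusted p = 0.0294). RAB11FIP4, another RAB11 partner, was lower, with 3430, 3250 and 3440 against 2910, 3140 and 2830 and no overlap (log2 fold change -0.19, standard error 0.050, limma adjusted p = 0.0346).

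No effector of the ER and Golgi (10 tested), of secretion (12) or of the late endosome and lysosome (11) was called by limma, where 2, 3 and 1 of them had an unadjusted p under 0.05 (28.6% of all genes). DESeq2 called none of these, and edgeR called 1 secretion effector lower. The late endosome and lysosome effectors had a median log2 fold change of -0.083. Of the 11, 8 lay below 0, next to 7241 of all 14792 genes tested. Among these 8 was VPS16, at -1e-04. With all samples the 6 tested RABs of that route lay above 0 while most of their listed effectors lay below it. The related RAB29, outside the naming rule, lay below 0 as well (log2 fold change -0.081). These are signs alone, and the difference was not tested.

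In the related ARF and ARL family, 4 of 24 genes were called higher and 1 lower by limma (6.11% and 4.66% of all genes). ARF6, which acts in endocytic recycling at the plasma membrane, had 5580, 6340 and 5850 normalised reads in the NC mimic samples and 6670, 6910 and 6850 in the miR-21-3p mimic samples. Every treated sample was above every control (log2 fold change 0.20, standard error 0.051, limma adjusted p = 0.0266). It was named after its values were seen.

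The keratinocyte markers with a row, other than KRT16, were abundant in all 6 samples. KRT16 had 223, 220 and 216 normalised reads in the NC mimic samples and 241, 235 and 192 in the miR-21-3p mimic samples. That is below the mean of 477 for the melanocyte marker MITF. KRT17 was not analysed here. Of 13 keratinocyte markers 12 had a row, led by the basal keratin KRT5 with a mean of 131800 normalised reads, and their sum ran from 358500 to 378810 in the NC mimic samples and from 358450 to 389660 in the miR-21-3p mimic samples, with overlap. By limma KRT6A was called higher and ITGB4 lower, 2 of 12 next to 10.8% of all genes, and DESeq2 called 2 higher and 1 lower. Of 7 melanocyte markers 2 had a row, PMEL and MITF, summing to 631, 630 and 640 in the controls and 586, 616 and 585 in the treated samples, with MITF the more abundant. The sums did not overlap, although the 2 genes went opposite ways (log2 fold change -0.13 for MITF and 0.074 for PMEL), and neither was called by limma, edgeR or DESeq2. RAB38 and RAB32 are also known from pigment cells, and the other melanocyte markers were not analysed here.

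Of other cell types, 2 of 6 endothelial markers had a row, with sums of 1197, 1087 and 1119 in the NC mimic samples and 877, 925 and 883 in the miR-21-3p mimic samples. These sums did not overlap. The more abundant marker, VWF, had 720, 801 and 726 against 712, 747 and 761 and overlapped, so the difference lay in CDH5, which was called lower, with 477, 286 and 393 against 165, 178 and 122 (limma adjusted p = 0.00262). COL1A1 was the single fibroblast marker of 7 with a row (560, 390 and 478 against 372, 378 and 364, without overlap) and was called lower by DESeq2 but not by limma or edgeR. CD14 was the single immune marker of 6 (89.6, 58.7 and 79.1 against 91.8, 92.2 and 69.1, with overlap). The other markers of these lists were not analysed here. Whether these shifts had a part in the RAB values was not tested.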

How the data were processed

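PolyA RNA from 6 HaCaT cultures was sequenced (stranded mRNA kit, per the labels). Per the submitters' processing notes the authors used bcl2fastq 2.18.12, cutadapt 1.15, TopHat2 2.1.1, featureCounts of Subread 1.5.2 and DESeq2. The genome build and the annotation are not given in the sources used here. The deposited values are a signal per gene, read counts divided by a size factor of each sample and printed to 3 significant digits, so rounding moves a value by at most 0.5%. Below 100, 100% of values were whole reads within 0.1 once divided by the value of 1 read. The same division of all values gave an estimated 24402972 to 27982497 reads per sample. Since the table held no raw counts, the test was limma 3.58.1 (R 4.3.3) on log2(value + 1) with a trend of variance on level, in place of the planned edgeR test, and fold changes are on that scale. Genes passing edgeR's filterByExpr on the recovered reads were tested (14792), with Benjamini-Hochberg adjustment over all of them. On recovered reads edgeR 4.0.16 with TMM factors called 1639 genes and DESeq2 1.42.0 called 1590, next to 1594 by limma on the deposited values. A tested RAB gene had 145 to 11087 reads in a sample, a counting error of up to 8.30%. Replicates of a group differed by more than sampling noise. The script was tested on simulated data.

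The RAB genes and lists were chosen with earlier results of these data known. Each RAB was placed by hand on a single route, and RABs outside the route lists went to the unassigned group. Named RABs were those called, the 5 with the largest absolute log2 fold change, the 3 next in order of adjusted p and the highest of each route per length; other RABs with values in the text were named after their values were seen. Named partners were taken from those called and GDI2, CHM, CHML, RABGGTA and RABGGTB, and some genes are not reported here. Of 64 RAB symbols, 40 matched a row by ID and name and 2 by ID under another name, and 22 were not analysed here. Exon lengths came from GENCODE v29. Alternatives varied the scaling, filter, test, pseudocount, variance trend and samples.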

Additional observations from a re-analysis of the deposited data

How the results depend on the processing

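The log2 fold changes of the 5 called RAB genes kept their sign under all 17 alternatives shown in the plot of called genes by setting. The number of RAB genes called, by contrast, changed whenever a sample was left out. Over all genes, 1594 were called with all samples and 1540 without miR-21-3p mimic replicate 2. Leaving out any other sample moved that count further. The filters and the variance trend cannot move a log2 fold change, so those settings bear on the calls alone. Leaving out each sample in turn, the genes called higher ranged from 95 to 1627 over all genes and from 0 to 6 among the RABs, and those called lower from 81 to 1330 and from 0 to 2. The partner genes called ranged from 0 to 9 in either direction, and the RAB median from 0.0070 to 0.038. The fewest calls over all genes came from leaving out NC mimic replicate 3 (176) and the most from leaving out NC mimic replicate 2 (2957). Fewer samples enter each of these fits.

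Without a trend of variance on level, an alternative chosen after seeing the data, limma called 24 genes higher and 26 lower, with 0 RAB and 0 partner genes in either direction, while 11 RAB genes had an unadjusted p under 0.05. The cause was not tested. RAB genes called lower numbered 1 with library totals, 0 without a filter on low values and 1 with DESeq2. Partner genes called lower numbered 6 with upper-quartile scaling and 5 with edgeR, under either RLE or TMM factors; the cause was not tested. The TMM fits and both pseudocounts were also chosen after seeing the data. RAB1B, which was not called, turned from -0.0047 to 0.0002 with library totals, and ranged from -0.025 to 0.019 when each sample was left out, above 0 without NC mimic replicate 1 or miR-21-3p mimic replicate 3.

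Replicate numbers did not pair the samples. The deviations of same-numbered samples from their group means correlated at -0.08, -0.30 and -0.32, and no sample correlated best with its own number. With the replicate block, which is not among the 17 alternatives above, 679 genes were called higher and 511 lower, with 1 RAB higher (RAB38) and 1 lower (RAB26) and 2 partner genes higher and 1 lower. RAB36, RAB7A and RAB40B were not called in that fit, in which a balanced design leaves the log2 fold changes as they are (limma adjusted p = 0.0523, 0.0995 and 0.105).

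RAB17 had the fewest reads of the tested RABs, 145 in its lowest sample, a counting error of 8.30%. Its 95% interval ran from -0.16 to 0.34.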
